A study of Mus musculus with 9 samples.

Results

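The tumor necrosis factor (TNF) superfamily of ligands and receptors was examined in bulk RNA sequencing of SB28 mouse glioma cells grown in the brain. Members were taken by gene symbol: every row named Tnfrsf or Tnfsf, together with Tnf, Fas, Fasl, Cd40, Cd40lg, Cd27, Cd70, Ltbr, Lta, Ltb, Eda2r and Ngfr. This gave 44 of the 24421 genes in the count table, namely 18 ligands, 6 receptors with a death domain, 16 receptors without one and 4 decoy or orphan receptors. The table held 3 control, 3 BAL101553 and 3 astrocyte libraries. SB28 is a glioma line that carries GFP and luciferase, and it was implanted in the brains of C57BL/6 mice that were 6 to 8 weeks old. BAL101553 (lisavanbulin), given by mouth, is the prodrug of the microtubule-directed agent BAL27862, and control mice did not receive it. The study's methods describe sorting of GFP+ CD45- CD11b- tumor cells, whereas the labels of the control and BAL101553 libraries read whole tissue. Tumors of treated mice were collected later (day 35 by the methods, day 33 by the results) than those of controls (day 21), so that treatment and growth time cannot be told apart. The astrocyte libraries carry the label BAL101553 as their treatment, and astrocytes of control mice were not analysed here. The methods speak of 2 ex vivo samples per group, whereas the labels and the count table hold 3 control and 3 BAL101553 libraries; n here counts libraries of the table. Nothing in the labels states that libraries of a group came from separate mice, so p-values measure only the spread between these libraries, which may be technical.

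TNF superfamily ligands are mostly trimeric membrane proteins, some of which are shed by the protease ADAM17. They bind receptors on neighboring cells, and the receptors recruit TRAF adaptors that switch on NF-κB and kinase signaling. Receptors with a cytoplasmic death domain, such as TNFR1, FAS and the TRAIL receptor, can also recruit FADD and caspase-8 and start apoptosis or necroptosis. Decoy receptors bind ligand without transmitting a death signal. Several members, among them CD40, 4-1BB, OX40 and GITR, are costimulatory receptors of immune cells and targets of agonist antibodies in cancer.

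Library totals ran from 22919523 to 34013875 counts, and family members took 0.0976% to 0.140% of the counts in SB28 libraries and 0.0392% to 0.0435% in astrocyte libraries. Levels are given as CPM, the reads of a gene scaled to the reads of its library after TMM scaling over all 9 libraries, and a count of 0 allows up to 3 reads, equal to 0.0871 to 0.134 CPM by library (counting error only). The genes of both markers used for exclusion were low: Ptprc (CD45) had 2 to 8 reads and Itgam (CD11b) 1 to 13 reads in each SB28 library. The 10 microglia and macrophage markers summed to 2.35 to 4.91 CPM in SB28 libraries, and the 6 T cell markers summed to at most 0.167 CPM in control libraries, where 4 of the 6 were at 0 in all 3, and were all at 0 in every BAL101553 library. Summed astrocyte markers reached 666 to 957 CPM in SB28 libraries, of which Gja1 made up 95.6% in control and 96.1% in BAL101553. Aldh1l1 was also expressed there, at 20.1 to 43.6 CPM, whereas Gfap had 3 to 13 reads. The endothelial list stood at 488 to 818 CPM in SB28 libraries, of which Cdh5 made up 99.4% in control and 99.5% in BAL101553. The astrocyte libraries expressed all 6 astrocyte markers, at a sum of 9808 to 12256 CPM, but the 6 oligodendrocyte markers summed to 10495 to 13036 CPM and the microglial markers to 456 to 987 CPM in the same libraries. Oligodendrocyte markers were thus as high as astrocyte markers in these libraries, which are called by their label.

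Of the 7 members that differed between BAL101553 and control libraries, 5 had a promoter entry in the RefSeq-based table (34 of the 44 members had one). The 250 bases upstream of the annotated start are shown for these 5, since they changed in the same comparison in opposite directions. Coordinates are on GRCm38.p6 and each sequence runs 5′ to 3′ along the gene, with capitals marking matches on either strand to the motifs searched.
Tnfsf11, chr14:78308044-78308293, minus strand: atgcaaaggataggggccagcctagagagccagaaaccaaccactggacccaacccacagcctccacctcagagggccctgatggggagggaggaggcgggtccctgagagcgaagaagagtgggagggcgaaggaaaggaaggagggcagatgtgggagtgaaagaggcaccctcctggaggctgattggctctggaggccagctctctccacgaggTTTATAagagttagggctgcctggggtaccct
Tnfrsf11a, chr1:105780473-105780722, plus strand: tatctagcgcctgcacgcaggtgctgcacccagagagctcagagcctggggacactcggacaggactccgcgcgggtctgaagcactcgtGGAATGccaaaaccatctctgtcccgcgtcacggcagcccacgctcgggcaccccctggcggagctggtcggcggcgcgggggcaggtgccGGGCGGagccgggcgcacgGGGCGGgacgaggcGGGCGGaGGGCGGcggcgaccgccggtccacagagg
Tnfrsf12a, chr17:23677450-23677699, minus strand: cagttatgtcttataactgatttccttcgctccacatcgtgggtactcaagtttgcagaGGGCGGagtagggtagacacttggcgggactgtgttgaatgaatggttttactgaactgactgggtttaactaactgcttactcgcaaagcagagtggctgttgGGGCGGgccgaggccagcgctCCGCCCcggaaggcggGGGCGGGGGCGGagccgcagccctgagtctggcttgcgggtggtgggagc
Ltbr, chr6:125313886-125314135, minus strand: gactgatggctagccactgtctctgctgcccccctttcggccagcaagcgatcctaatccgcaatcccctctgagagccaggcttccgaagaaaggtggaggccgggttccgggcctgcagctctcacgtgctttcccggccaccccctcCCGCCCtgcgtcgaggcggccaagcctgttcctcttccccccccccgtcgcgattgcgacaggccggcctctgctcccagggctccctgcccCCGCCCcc
Tnfrsf23, chr7:143685876-143686125, minus strand: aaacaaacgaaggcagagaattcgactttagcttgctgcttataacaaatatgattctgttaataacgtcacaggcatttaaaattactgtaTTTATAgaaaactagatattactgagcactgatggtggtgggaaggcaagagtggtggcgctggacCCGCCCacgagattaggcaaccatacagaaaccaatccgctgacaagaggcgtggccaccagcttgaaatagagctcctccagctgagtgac

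The motifs searched were the AP-1 site TGANTCA, the cyclic AMP response element TGACGTCA, the TEAD site GGAATG, the GC box GGGCGG, the TATA box TATAAA and the NF-κB consensus. Among all 32851 promoter windows of this length, 6.75% held the AP-1 letters, 1.55% the cyclic AMP response element, 12.6% the TEAD site, 32.7% the GC box, 12.4% the TATA box and 7.25% the NF-κB consensus. None of the 5 windows held the AP-1, cyclic AMP response element or NF-κB letters, which says nothing about sites elsewhere. Tnfsf11 held 1 TATA box match, 27 to 32 bases before the start and read on the opposite strand, and no GC box. Tnfrsf11a held 4 GC boxes and 1 TEAD match, and Tnfrsf12a held 5 GC boxes, of which the pair nearest the start lie side by side. Ltbr held 2 GC boxes, and Tnfrsf23 held 1 GC box and 1 TATA box match 153 to 158 bases before the start. The GC content of the windows ranged from 44.8% in Tnfrsf23 to 73.6% in Tnfrsf11a.

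Tnfrsf22 and Tnfrsf23, 2 neighboring receptor genes on chromosome 7, share long stretches of sequence, which bears on how reads were assigned to them. Their coding sequences (594 and 528 bases in GENCODE vM21) were identical at 90.7% of aligned bases, with 102 identical bases in a row. The 200 coding bases that end with this run are printed here, with capitals at the 11 positions where the genes differ. They fall in 4 coding exon segments between chr7:143668582-143679947 for Tnfrsf23 and chr7:143638426-143643278 for Tnfrsf22, on the minus strand of GRCm38.
Tnfrsf23, coding bases 293 to 492: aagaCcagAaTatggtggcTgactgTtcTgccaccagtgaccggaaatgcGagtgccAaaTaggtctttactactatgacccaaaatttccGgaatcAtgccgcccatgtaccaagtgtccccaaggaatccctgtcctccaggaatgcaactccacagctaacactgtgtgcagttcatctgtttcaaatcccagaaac
Tnfrsf22, coding bases 323 to 522: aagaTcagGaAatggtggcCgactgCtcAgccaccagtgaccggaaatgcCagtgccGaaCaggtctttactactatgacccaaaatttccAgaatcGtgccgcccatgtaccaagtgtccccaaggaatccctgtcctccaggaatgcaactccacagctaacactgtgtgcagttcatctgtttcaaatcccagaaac

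Of the 151 windows of 50 bases, the read length used, 53 were the same in both genes. Over the whole transcripts, 18.0% of the 50-base words of Tnfrsf23 also occurred in Tnfrsf22, and 27.4% of those of Tnfrsf22 occurred in another gene. The values of Tnfrsf22 and Tnfrsf23 are thus uncertain one by one. Tnfrsf26, the third gene of the cluster, shared no 50-base word with another gene.

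SB28 cells transcribed the receptors of the family more broadly than its ligands. More than 3 reads in each of the 6 SB28 libraries were found for 22 of the 44 members. These were 4 of 6 death domain receptors, 9 of 16 other receptors and 4 of 4 decoy or orphan receptors, but 5 of 18 ligands, namely Tnfsf9, Tnfsf10, Tnfsf11, Tnfsf12 and Tnfsf18. Another 17 members did not exceed 3 reads in any SB28 library. Summed ligand levels were 7.60 to 11.3 CPM, against 296 to 363 CPM for death domain receptors and 529 to 790 CPM for the other receptors.

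**Figure D1:**
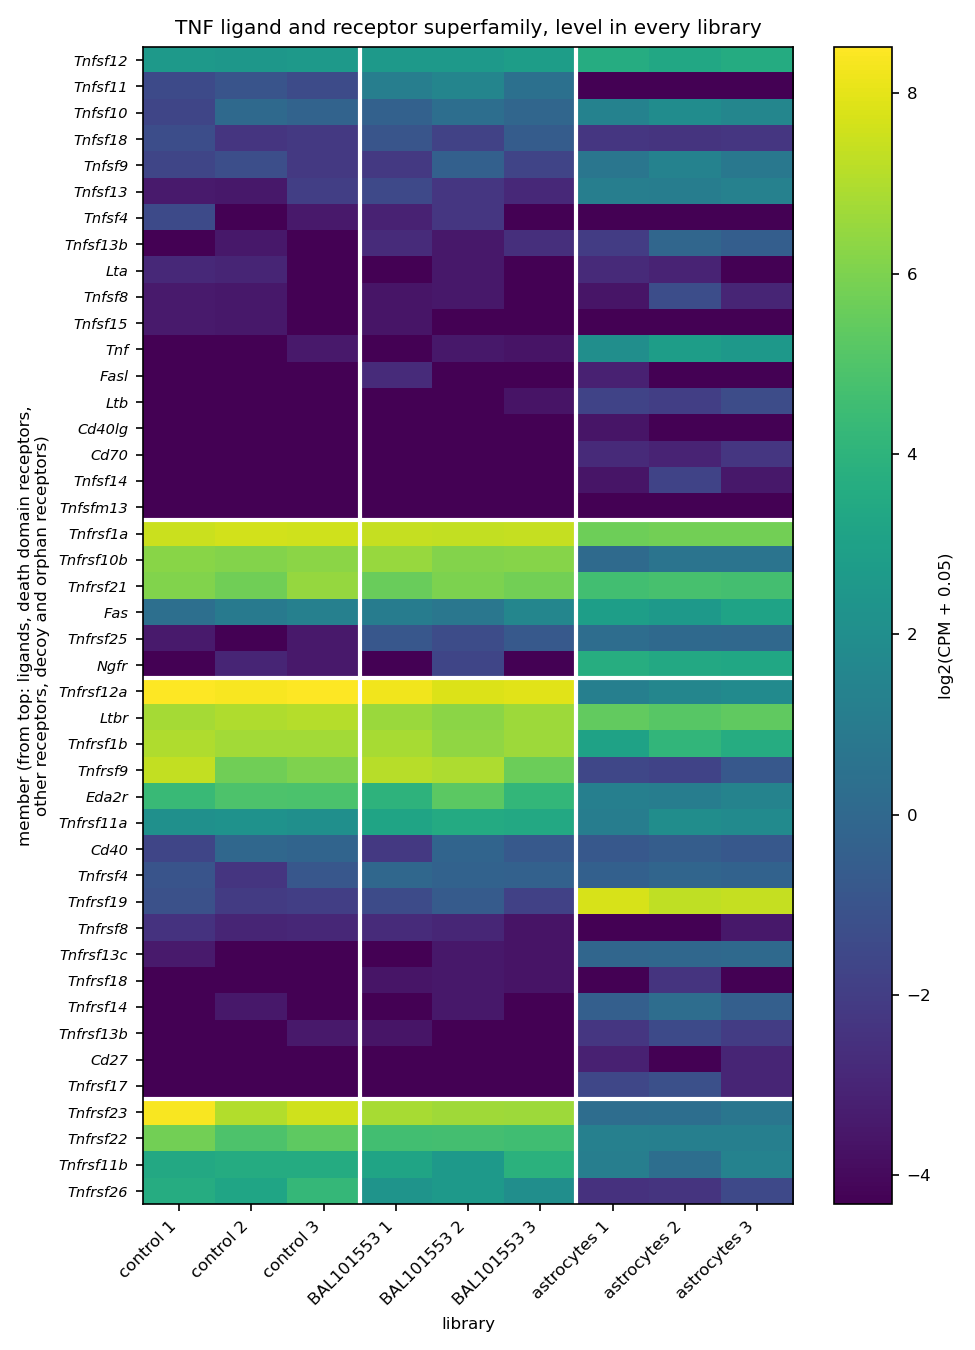
Level of each of the 44 members (rows, by role) in each of the 9 libraries (columns), as log2 of CPM plus a pseudocount of 0.05. Receptors such as Tnfrsf12a and Tnfrsf1a are bright in all SB28 columns, most ligand rows are dark there, and Tnfrsf19, Tnf and Ngfr are bright in the astrocyte columns only.

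Per kilobase of exon length, Tnfrsf12a had the highest level in SB28 cells. Tnfrsf12a encodes FN14, the receptor of TWEAK, which drives migration and NF-κB signaling in many tumors. Its level was 158 ± 28.7 CPM per kb (SD, n = 6) and made up 36.4% of the family's summed level per kb. Tnfrsf1a, the death domain receptor TNFR1, followed at 68.8 ± 6.46 CPM per kb, and Ltbr, the lymphotoxin beta receptor, at 45.9 ± 8.88. The ranges of these 3 genes over the 6 libraries did not overlap between neighbors in the order. Tnfrsf23 followed at 40.8 ± 22.97 CPM per kb, Tnfrsf9 (4-1BB) at 36.5 ± 18.0 and Tnfrsf1b (TNFR2) at 27.8 ± 3.72. From Ltbr to Tnfrsf1b each gene overlapped the next in range, so their order is not set by these libraries. Tnfrsf21 (death receptor 6), Tnfrsf10b (the TRAIL receptor of the mouse), Tnfrsf22 and Eda2r (the receptor of ectodysplasin A2) completed the 10 highest, at 15.2, 14.0, 7.86 and 4.32 CPM per kb.

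The ligand and receptor levels were set against each other for 25 known pairs. Tnfsf10 with Tnfrsf22 and with Tnfrsf23 were not on this list, although these genes too had more than 3 reads in all 6 SB28 libraries. In 6 pairs both partners had more than 3 reads in all 6 SB28 libraries: Tnfsf9 with Tnfrsf9, Tnfsf10 with Tnfrsf10b and with Tnfrsf11b, Tnfsf11 with Tnfrsf11a and with Tnfrsf11b, and Tnfsf12 with Tnfrsf12a. In 9 pairs only the receptor passed. The latter include Tnfrsf1a, Tnfrsf1b, Ltbr, Fas and Cd40, whose ligands Tnf, Lta, Ltb, Fasl and Cd40lg had at most 3 reads in any SB28 library. Tnfsf12 (TWEAK), at 3.99 ± 0.329 CPM per kb, was the highest ligand, although 46.8% of its 50-base words also occur in the read-through gene Tnfsfm13, which had no reads in any library.

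BAL101553 libraries held more transcript of Tnfsf11 (RANKL) and its receptor Tnfrsf11a (RANK) than control libraries, and less of Tnfrsf22, Tnfrsf23, Tnfrsf26, Tnfrsf12a and Ltbr. Of the 44 members, 19 passed the filter on low counts, and 7 of these were called at an edgeR adjusted p under 0.05 (36.8%), beside 14.7% of the 12633 genes tested. Tnfsf11, Tnfrsf4 and Tnfsf10 passed only through the BAL101553 libraries, which favors a difference. Of the other 16 members 6 were called, 1 higher and 5 lower. The calls over all 19 were 2 higher and 5 lower, while 8.64% of all tested genes were called higher and 6.09% lower. With library totals in place of TMM, the split was 2 higher and 2 lower, as Tnfrsf12a, Ltbr and Tnfrsf23 lost their calls. In that setting 1881 of the 12633 genes were called. Control and BAL101553 libraries did not overlap for 9 of the 19, beside 39.7% of all tested genes. The median log2 fold change was -0.18 over the 19 members and 0.02 over all tested genes. In bulk samples, fewer cells with a transcript and less transcript per cell cannot be told apart.

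**Figure D2:**
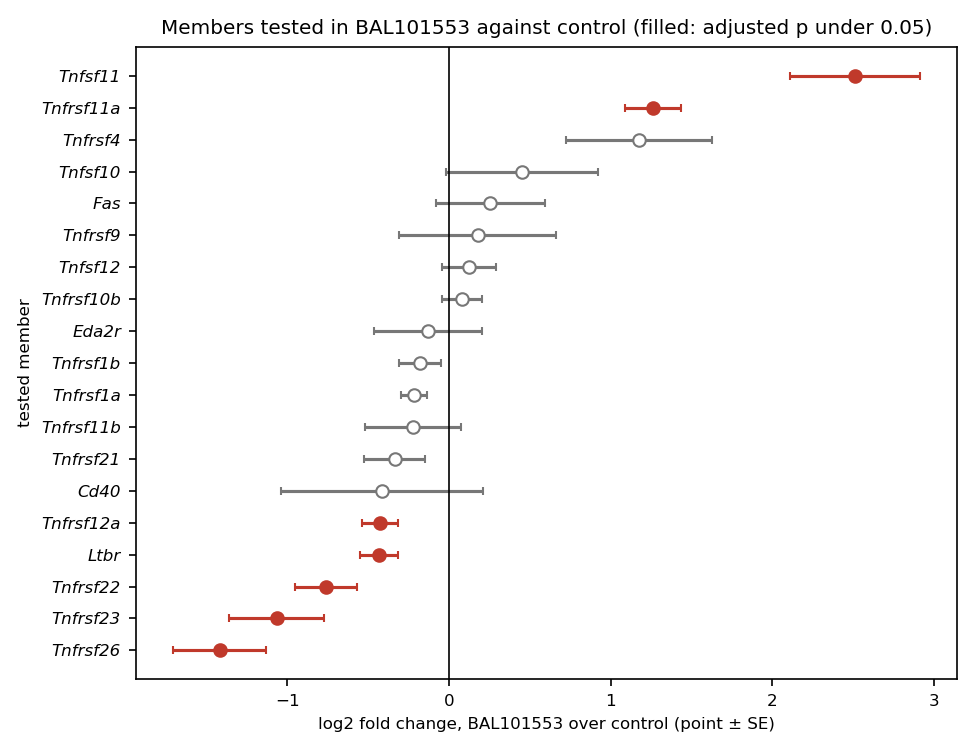
Log2 fold change (BAL101553 over control) of the 19 tested members, point and SE from the edgeR fit of 3 against 3 libraries, with filled points for adjusted p under 0.05. Tnfsf11 and Tnfrsf11a lie to the right of 0, and the filled points on the left are Tnfrsf12a, Ltbr, Tnfrsf22, Tnfrsf23 and Tnfrsf26.

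RANKL binds RANK, which is best known for driving osteoclast formation and is also used by lymphoid and mammary epithelial cells, and osteoprotegerin (Tnfrsf11b) is the soluble decoy that blocks it. Tnfsf11 (chr14:78277445-78308043, minus strand) stood at 0.313, 0.447 and 0.334 CPM in the control libraries (7, 12 and 8 reads) and at 2.23, 2.82 and 1.28 CPM in the BAL101553 libraries (66, 72 and 44 reads). All 3 BAL101553 libraries were above all controls, and the third was the lowest of them. The gene passed the filter only through the BAL101553 libraries, since only 1 control library reached its cutoff, and such passage favors a difference. The log2 fold change was 2.51 (SE 0.40, adjusted p = 0.0123), a 5.70-fold higher level. Without control library 3 the adjusted p was 0.0631 at a log2 fold change of 2.45, and in the other 5 fits that left out a library the call held.

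Tnfrsf11a (chr1:105780718-105847981, plus strand) stood at 4.24, 4.62 and 4.13 CPM in control libraries and 8.88, 11.5 and 10.6 CPM in BAL101553 libraries, with a gap between the groups wider than the range of either. It rose by 1.26 on the log2 scale (SE 0.17, adjusted p = 0.00832), or 2.40-fold. Its call held in all 6 fits that left out 1 library, with adjusted p from 0.0155 to 0.0492. Tnfrsf11b was at 10.7, 12.1 and 12.01 CPM in control libraries and at 8.84, 5.98 and 14.7 CPM in BAL101553 libraries, which overlapped (log2 fold change -0.22, SE 0.30, adjusted p = 0.628). The ratio of Tnfsf11 to Tnfrsf11b, as reads per exon base, was 0.0369, 0.0467 and 0.0350 in controls and 0.317, 0.593 and 0.109 in BAL101553 libraries. The means were 0.0395 ± 0.00626 and 0.340 ± 0.243 (SD, n = 3 each), and the groups did not overlap (exact permutation test on log2 ratios, two-sided, p = 0.1, the smallest that 3 against 3 allows). The ratio was not a planned comparison, and it repeats the Tnfsf11 difference, since Tnfrsf11b overlapped. In astrocyte libraries Tnfsf11 had 0 reads in all 3, while Tnfrsf11a was at 2.14 to 3.85 CPM.

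**Figure D3:**
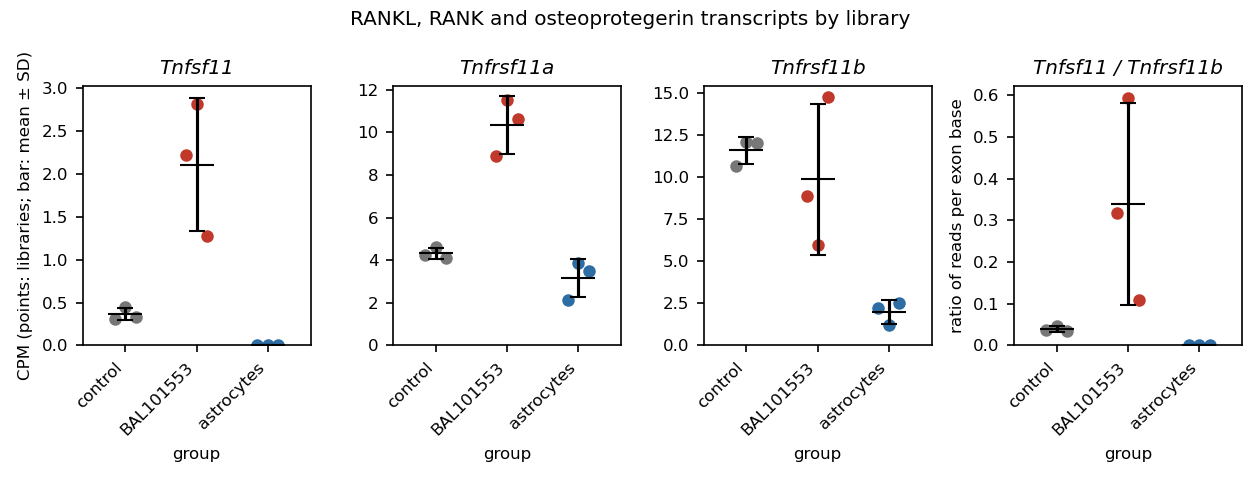
Tnfsf11, Tnfrsf11a and Tnfrsf11b in CPM and the Tnfsf11 to Tnfrsf11b ratio of reads per exon base, for each library (points) with group mean and SD (bars, n = 3). Tnfsf11, Tnfrsf11a and the ratio separate the control points from the BAL101553 points without overlap, and Tnfrsf11b overlaps.

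Tnfrsf22, Tnfrsf23 and Tnfrsf26 lie in tandem on chr7:143607659-143685872, all on the minus strand. The products of Tnfrsf22 and Tnfrsf23 are decoy receptors of the mouse that bind TRAIL, and Tnfrsf26 encodes a related receptor. Tnfrsf23 was at 333, 130 and 195 CPM in control libraries and at 113, 101 and 98.6 CPM in BAL101553 libraries. The controls spread widely, and the lowest control was above the highest BAL101553 library. Its level fell by 1.07 on the log2 scale (SE 0.30, adjusted p = 0.0489), so that controls were 2.09-fold higher.

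Tnfrsf22 was at 54.1, 30.8 and 40.4 CPM in controls and 24.3, 25.4 and 23.8 CPM in BAL101553 libraries (log2 fold change -0.76, SE 0.19, adjusted p = 0.0380). As with Tnfrsf23, control 1 was the highest and control 2 the lowest. Tnfrsf26 was at 12.3, 9.34 and 19.0 CPM in controls and 4.996, 6.18 and 3.95 CPM in BAL101553 libraries, a fall by 1.42 on the log2 scale (SE 0.29, adjusted p = 0.0214). With the counts of Tnfrsf22 and Tnfrsf23 summed into 1 gene, a step chosen after the data were seen, the log2 fold change was -1.01 (SE 0.28, adjusted p = 0.0470). The calls of Tnfrsf22 and Tnfrsf23 were each lost without control 1, control 3 or any 1 of the 3 BAL101553 libraries. Over the 6 fits that left out 1 library, the log2 fold changes of Tnfrsf22 ran from -0.94 to -0.54 and those of Tnfrsf23 from -1.34 to -0.64, with adjusted p up to 0.107 and 0.128. Tnfrsf26 lost its call without control 1, control 3, BAL101553 1 or BAL101553 3, with log2 fold changes from -1.64 to -1.10 over the 6 fits and adjusted p up to 0.0753. The antisense-strand gene E230032D23Rik overlaps Tnfrsf23 and Tnfrsf26 by 164 and 107 exon bases.

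Tnfrsf12a was at 366, 335 and 354 CPM in control libraries and at 299, 233 and 249 CPM in BAL101553 libraries. No BAL101553 library reached the lowest control (log2 fold change -0.43, SE 0.11, adjusted p = 0.0415). Its ligand Tnfsf12 was at 5.80 ± 0.310 CPM in controls and 6.28 ± 0.595 CPM in BAL101553 libraries (SD, n = 3 each, adjusted p = 0.633). Ltbr was at 111, 125 and 137 CPM in controls and 96.2, 79.1 and 99.4 CPM in BAL101553 libraries, again without overlap (log2 fold change -0.43, SE 0.12, adjusted p = 0.0476). Ltbr lost its call when any 1 of the 6 libraries was left out (adjusted p 0.0653 to 0.160, log2 fold changes -0.52 to -0.34). Tnfrsf12a lost its call in 5 of these 6 fits, all but that without BAL101553 1, with log2 fold changes from -0.54 to -0.35.

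**Figure D4:**
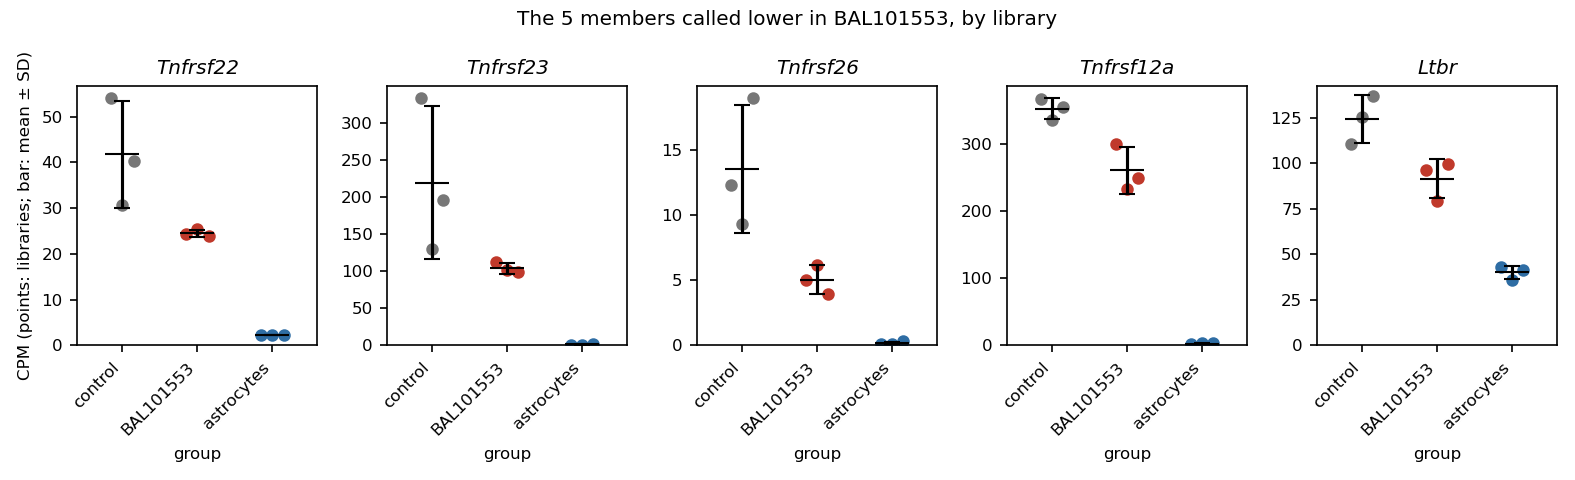
Tnfrsf22, Tnfrsf23, Tnfrsf26, Tnfrsf12a and Ltbr in CPM for each library (points) with group mean and SD (bars, n = 3). Every BAL101553 library is below every control for each gene, control libraries of the chromosome 7 genes spread most relative to their mean, and astrocyte libraries are lowest.

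None of the 4 tested death domain receptors was called. Tnfrsf1a was at 180, 201 and 195 CPM in controls and 165, 161 and 167 CPM in BAL101553 libraries, without overlap but above the threshold (log2 fold change -0.22, SE 0.08, adjusted p = 0.108). Tnfrsf10b was at 75.2, 70.5 and 77.3 CPM in controls and 92.9, 69.0 and 72.9 CPM in BAL101553 libraries, a log2 fold change of 0.08 with a 95% interval from -0.16 to 0.32 (adjusted p = 0.668). Its ligand Tnfsf10 (TRAIL) had 6, 27 and 19 reads in controls and 22, 31 and 31 reads in BAL101553 libraries (log2 fold change 0.45, SE 0.47, adjusted p = 0.533).

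Tnfrsf21 was at 67.3, 53.2 and 88.5 CPM in controls and 47.3, 63.3 and 54.1 CPM in BAL101553 libraries (log2 fold change -0.34, SE 0.19, adjusted p = 0.249). Fas, the receptor through which cytotoxic lymphocytes kill by Fas ligand, was low throughout, at 1.25, 1.94 and 2.38 CPM in controls and 2.03, 1.64 and 2.93 CPM in BAL101553 libraries (log2 fold change 0.26, SE 0.34, adjusted p = 0.626). Fasl had 0 reads in all controls and 3 reads in BAL101553 library 1 only, at the floor. Tnfrsf25 (death receptor 3) did not pass the filter, with 1, 0 and 1 reads in controls and 15, 9 and 19 reads in BAL101553 libraries. Pooled over libraries, its rate was 17.6 times higher in BAL101553 (exact 95% counting interval 4.58 to 150, which covers counting error only). When every gene with a count was tested its adjusted p was 0.0136, and over the alternatives that tested it the adjusted p ran from 0.00282 to 0.0699. The filter's cutoff was reached by 0 control libraries and 2 BAL101553 libraries. Fits with left-out libraries could thus admit the gene only through the BAL101553 libraries, and such passage favors a difference. Its ligand Tnfsf15 had 3 reads in the 6 libraries together.

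The remaining highly expressed receptors overlapped between the groups. Tnfrsf9, a costimulatory receptor of T and NK cells, was at 162, 53.9 and 65.2 CPM in controls and 142, 124 and 49.8 CPM in BAL101553 libraries (log2 fold change 0.18, 95% interval -0.77 to 1.13, adjusted p = 0.822). The summed T cell markers were at most 0.167 CPM in any of these 6 libraries. Tnfrsf1b was at 126, 108 and 105 CPM in controls and 114, 83.7 and 99.7 CPM in BAL101553 libraries (log2 fold change -0.18, SE 0.13, adjusted p = 0.365). Eda2r was at 20.5, 30.1 and 29.4 CPM in controls and 15.8, 38.8 and 18.2 CPM in BAL101553 libraries (log2 fold change -0.13, SE 0.34, adjusted p = 0.811), with BAL101553 library 2 the highest of all 6.

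Cd40, the target of agonist antibodies that license antigen-presenting cells, was near the limit of detection, with 6, 25 and 20 reads in controls and 5, 21 and 19 reads in BAL101553 libraries. Levels were 0.677 ± 0.358 and 0.514 ± 0.328 CPM (SD, n = 3 each), and the 95% interval of the log2 fold change ran from -1.64 to 0.81 (adjusted p = 0.670). Cd40lg had 0 reads in all 6 SB28 libraries, and Tnf had 0, 0 and 1 reads in controls and 0, 1 and 1 reads in BAL101553 libraries. Tnfrsf4 (OX40) had 10, 4 and 12 reads in controls and 27, 20 and 26 reads in BAL101553 libraries, which did not overlap but missed the threshold (log2 fold change 1.18, SE 0.45, adjusted p = 0.111).

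The other members were at the low end. Cd27, Cd70, Tnfrsf17, Tnfsf14 and Tnfsfm13 had 0 reads in all 6 SB28 libraries. Lta, Ltb, Tnfsf8, Tnfsf15, Tnfrsf8, Tnfrsf13b, Tnfrsf13c, Tnfrsf14 and Tnfrsf18 had at most 3 reads in any of them. Tnfsf4, Tnfsf13, Tnfsf13b and Ngfr reached at most 7, 9, 4 and 7 reads, Tnfsf9 and Tnfsf18 at most 18 and 21, and Tnfrsf19 at most 15.

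A list of 36 genes that act downstream of the receptors was read in the same fit. All 36 were tested, and 4 were called, all higher in BAL101553 libraries (11.1%, beside 14.7% of all tested genes), with a median log2 fold change of 0.03. Birc2 (cIAP1), a ubiquitin ligase of TNFR1 and TNFR2 complexes, was at 10.4, 9.01 and 8.21 CPM in controls and 13.6, 18.0 and 15.01 CPM in BAL101553 libraries (log2 fold change 0.76, SE 0.16, adjusted p = 0.0237). Nfkbie, an inhibitor of NF-κB, was at 12.2, 8.97 and 9.55 CPM in controls and 21.6, 12.8 and 21.02 CPM in BAL101553 libraries (log2 fold change 0.86, adjusted p = 0.0421). Bid, which links caspase-8 to mitochondria, rose by 0.45 (adjusted p = 0.0414) and Adam17 by 0.38 (adjusted p = 0.0356) on the log2 scale. The caspase-8 regulators Cflar and Fadd were just above the threshold, at log2 fold changes of 0.36 and -0.59 (adjusted p = 0.0516 and 0.0579). The NF-κB subunits Nfkb1, Nfkb2, Rel, Rela and Relb, all TRAF genes of the list and Tnfaip3 were not called. No gene of the list was called without any 1 control library or without BAL101553 3. Without BAL101553 1, 1 was called, beside 1133 genes in all. Without BAL101553 2, 4 were called, among them Adam17, Birc2 and Nfkbie, beside 1712 genes in all.

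Most members with enough reads in both groups were lower in astrocyte than in BAL101553 libraries. Of 27 members that passed the filter, 9 did so only through the astrocyte libraries (Cd40, Ngfr, Tnf, Tnfrsf13c, Tnfrsf14, Tnfrsf19, Tnfrsf25, Tnfsf9 and Tnfsf13) and 3 only through the BAL101553 libraries (Tnfrsf9, Tnfrsf26 and Tnfsf11). These 12 are described by their reads, since passing the filter through 1 group favors a difference. Of the other 15, 14 were called, 3 higher and 11 lower, beside 85.1% of the 15314 genes tested, of which 46.3% were called higher and 38.9% lower. The 3 higher were Fas and the ligands Tnfsf10 and Tnfsf12, and the 11 lower include the decoy or orphan receptors Tnfrsf11b, Tnfrsf22 and Tnfrsf23. The comparison shares the BAL101553 libraries with that against control. Scaling to library totals in place of TMM moved the median log2 fold change of all genes from 0.18 to 0.39. With it 12956 of the 15314 genes tested were called, and 25 of the 27 members, the 12 above being among the 27.

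The highest astrocyte member per kilobase was Tnfrsf19 (TROY), a receptor of neural and stem cells, at 37.7 CPM per kb and 33.03% of the family's summed level. Tnfrsf19 had 6682, 4410 and 4406 reads in astrocyte libraries and 10, 15 and 8 in BAL101553 libraries. Ngfr, the neurotrophin receptor p75, had 400, 307 and 255 reads against 0, 7 and 0, a rate 143 times higher (exact 95% counting interval 69.3 to 357). Tnf had 128, 198 and 150 reads in astrocyte libraries and 2 in the BAL101553 libraries together (ratio 248, interval 68.3 to 2055). Tnfrsf14 had 73 reads against 1 (ratio 76.1, interval 13.2 to 3047), and Tnfrsf13c had 80 against 2 (ratio 41.7, interval 11.2 to 350). The microglial markers summed to at least 456 CPM in the same astrocyte libraries, and their part in the levels of Tnf, Tnfrsf13c and Tnfrsf14 was not tested.

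Tnfsf11, at 66, 72 and 44 reads in BAL101553 libraries, was at least 12.1-fold lower in astrocyte libraries, taking the lowest BAL101553 library against the mean of the floors of 3 counts per library, since all 3 astrocyte libraries had 0 reads. Tnfrsf9 had 4199, 3178 and 1716 reads in BAL101553 libraries and 9, 7 and 14 in astrocyte libraries. Tnfrsf12a had 72, 84 and 90 reads there, at a log2 fold change of -6.53 (SE 0.19, adjusted p = 4.44e-08). Tnfrsf23 had 37, 34 and 42 reads, at -6.33 (SE 0.15, adjusted p = 1.69e-08), and Tnfrsf10b had 33, 42 and 38, at -5.92 (SE 0.20, adjusted p = 7.93e-08). Fas was 3.16-fold and Tnfsf10 3.12-fold higher in astrocyte libraries, and Tnfsf12 was 1.77-fold higher. Tnfrsf1a and Ltbr came next after Tnfrsf19 in the astrocyte order per kilobase, at 20.9 and 17.1 CPM per kb, and were 3.11-fold and 2.34-fold lower than in BAL101553 libraries. Cd40 had 17, 18 and 14 reads in astrocyte libraries, against 5, 21 and 19 in BAL101553 libraries. Tnfrsf4, with 23, 24 and 20 reads in astrocyte libraries, was not called (adjusted p = 0.720). Cd40lg had 1 read and Fasl 2 reads in the astrocyte libraries together, and Tnfsf4, Tnfsf15 and Tnfsfm13 had none.

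**Figure D5:**
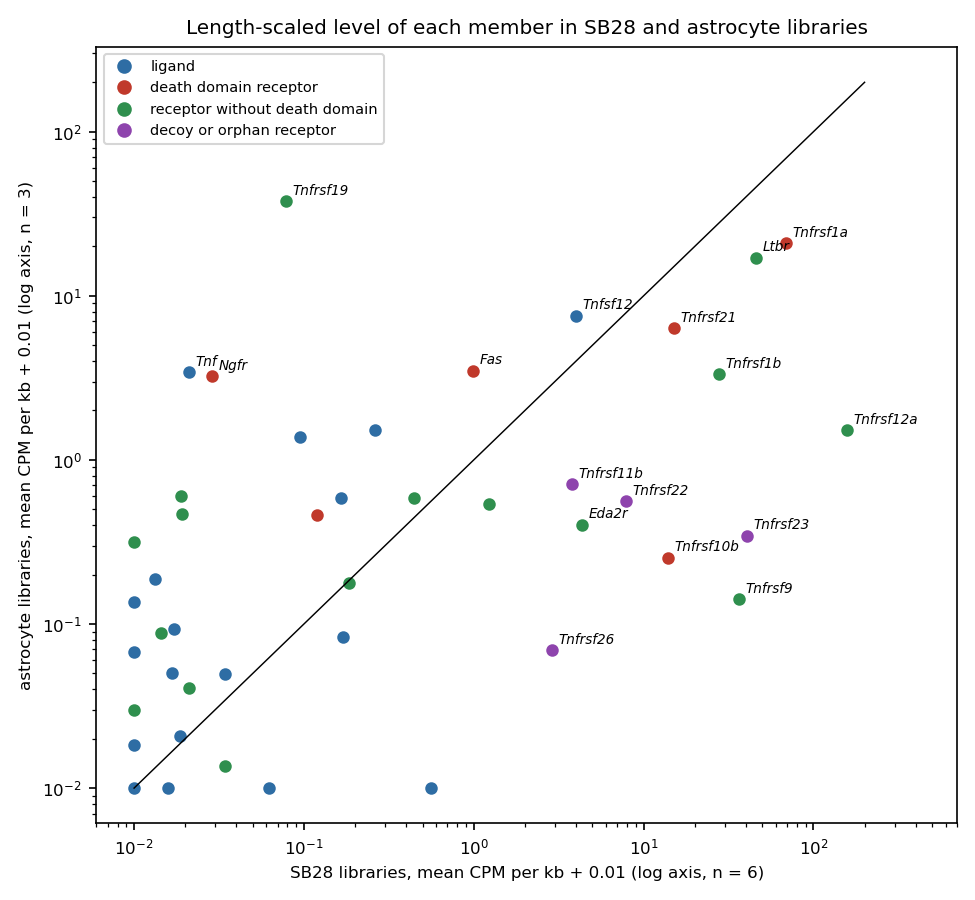
Mean level of each member per kilobase of exon length (CPM per kb plus 0.01, log axes) in the 6 SB28 libraries (x) and the 3 astrocyte libraries (y), colored by role, with a line of equal level. Tnfrsf19, Tnf and Ngfr lie far above the line, and Tnfrsf12a, Tnfrsf9, Tnfrsf23 and Tnfrsf10b far below it.

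Of the 36 downstream genes, 31 were called in astrocyte against BAL101553 libraries (86.1%, beside 85.1% of all tested genes), 25 lower and 6 higher. Their median log2 fold change was -1.09, against 0.18 over all tested genes. The lowest were the necroptosis genes Mlkl and Ripk3, which fell by 5.91 and 5.65 on the log2 scale. The caspase-8 gene Casp8 and Bid had log2 fold changes of -3.04 and -3.40, while Birc2 rose by 1.19 (SE 0.12). In the astrocyte libraries the oligodendrocyte markers summed to 10495 to 13036 CPM, the astrocyte markers to 9808 to 12256 CPM and the microglial markers to 456 to 987 CPM. The part of each cell type in these differences was not tested.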

How the data were processed

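The study's methods describe RNA from SB28 tumor cells, sequenced with a stranded TruSeq kit and 50-base reads, and do not mention the astrocyte libraries. The authors aligned reads to mm10 with TopHat, counted them per gene (HTSeq 0.6.1 in the submitters' notes) and deposited raw counts of 24421 genes in 9 libraries. A total of 27 row names appear as dates, and none was a member. Here counts were tested with edgeR 4.0.16 (R 4.3.3) by the quasi-likelihood test, with filterByExpr, TMM scaling and Benjamini-Hochberg adjustment over all genes tested, at a threshold of 0.05, two-sided. Each fit held only the 2 groups compared. SE was the log2 fold change divided by the root of F, and 95% intervals are normal approximations from it. DESeq2 1.42.0, limma 3.58.1 and other scalings, filters, a replicate block and left-out libraries were run as alternatives. Scripts were tested on simulated data. Gene positions and exon lengths came from GENCODE vM21 (GRCm38, the same assembly as mm10), and promoters from RefSeq (GRCm38.p6).

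The members, the downstream and marker lists and the pairs were chosen with earlier results of these data known. Named in full were members called in BAL101553 against control, the 10 highest per kilobase in SB28 libraries, Cd40, Cd40lg, Tnf, Fas, Fasl, Tnfrsf10b and Tnfsf10, the 5 largest rises and 5 largest falls in astrocytes, and downstream genes called in BAL101553 against control. Other members are given by their reads. Libraries of a group differed beyond sampling noise and were counted separately.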

Additional observations from a re-analysis of the deposited data

How the results depend on the processing

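In BAL101553 against control 7 of 19 tested members were called, beside 1860 of 12633 genes. With library totals in place of TMM 4 were called, 2 of them lower, beside 1881 genes. The other tests and scalings, the looser filter and the model of all 9 libraries called 6 to 8 members. The counts over all genes moved too. DESeq2 called 7 members beside 2832 genes. The looser filter called 8 of 38 members beside 1854 of 17318 genes. The 9-library model called 8 of 27 beside 3022 of 15408. The 8 are the 7 and Tnfrsf25, which the looser filter and the 9-library model tested. With at least 10 counts in every library, 5 of 15 tested members were called, beside 1742 of 11861 genes. Of these 5, 1 was higher, as Tnfsf11 was not tested and Ltbr, tested, missed the threshold. Same-numbered control and BAL101553 libraries correlated at 0.143, 0.0105 and 0.145 across genes, and pairs of unlike number at -0.194 to 0.0830. With 3 libraries per group these values cannot decide whether the numbers are a pairing. The replicate block called 5 members, 3 of them lower, and 1371 genes in all. Leaving out libraries gave 0 to 7 members called, members outside the 7 included, 0 to 3 higher, 0 to 4 lower and 0 to 4 downstream genes. Fits without 1 library called 193 to 1712 genes in all. Of 9 fits with 2 against 2 libraries, 6 called no member, and the 9 fits called 1 to 1757 genes in all. The direction of the 7 called members held in each alternative that tested them. Among members not called, leaving out libraries reversed the log2 fold change of Tnfrsf9 (-0.38 to 1.17), Cd40 (-1.25 to 0.30), Eda2r (-0.80 to 0.19), Tnfrsf10b (-0.10 to 0.19), Tnfrsf11b (-0.69 to 0.0563), Fas (-0.22 to 0.63), Tnfrsf1b (-0.35 to 0.0109), Tnfsf10 (-0.12 to 0.98) and Tnfsf12 (-0.0024 to 0.20).

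In astrocytes against BAL101553, with at least 10 counts in every library, 14 of the 15 members tested were called, 3 of them higher. That setting called 9779 of 11873 genes. With at least 1 count in any library, 17 of the 43 members tested were higher, and 14200 of 19216 genes were called in either direction. The 17 include members, such as Tnf and Ngfr, with almost all their reads in the astrocyte libraries. Tnfrsf4 reversed to 0.11 with library totals, 0.081 with upper quartile scaling, 0.13 with the filter of 10 counts and 1.07 against control in place of BAL101553, and Cd40 reversed to -0.31 against control and ran from -0.30 to 0.57 with libraries left out. Where a cause is not named, the cause was not tested. Depth limits members with few reads: those under 3 reads per library cannot be ordered.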

Other observations

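Genes within 500 kb of the Tnfrsf22, Tnfrsf23 and Tnfrsf26 cluster, chosen after its values were seen, were read in the fit of BAL101553 against control. Of 12 tested neighbors, 3 were called, beside 14.7% of all tested genes: Kcnq1, a potassium channel gene, was higher (log2 fold change 1.11, adjusted p = 0.0283), and Dhcr7, a cholesterol synthesis enzyme, and Nap1l4, a histone chaperone, were lower (-0.74 and -0.49, adjusted p = 0.0201 and 0.0279). The log2 fold changes of the 12 ran from -0.81 for Shank2 (adjusted p = 0.0842) to 1.36 for Kcnq1ot1 (adjusted p = 0.0507). Osbpl5, a neighbor of Tnfrsf23 on chromosome 7, was at -0.28 (adjusted p = 0.115).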
